A study of Homo sapiens with 8 samples.

Results

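The on-off genes were the 8 genes of the count table that were nearly silent in all 4 libraries of one genotype and expressed in all 4 libraries of the other. They were selected on their raw counts, with earlier results of these data known, as genes with at most 3 counts in every library on the silent side and at least 20 in every library on the expressed side. Of the 58233 genes in the table, 8 met both limits. VWA1, CD1D, NUDT11, NAP1L3, PYCARD, PALM and EP300-AS1 were expressed in control cells only, and PDE3B was expressed in RBM6-KO1 cells only. For comparison, 12699 genes had at least 20 counts in all 4 control libraries and 12604 in all 4 RBM6-KO1 libraries. Because the difference between genotypes chose these genes, that difference is described here and not tested. The response to ionizing radiation (IR) was not itself a criterion and was tested, but the limits held for irradiated and untreated libraries alike, so that a gene near 20 counts that was lower in either treatment could not qualify.

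RBM6 is a splicing factor, and the study asked how its loss changes the transcriptome before and after DNA damage. All cells were MCF10A-Hras, a human breast epithelial line that carries the H-Ras oncogene in both genotypes. The control genotype is labelled WT, and RBM6-KO1 is a single-cell clone made with a pair of guides to exon 3 and the Cas9-D10A nickase. Cells of each genotype were left untreated or received 5 Gy of X-rays and recovered for 12 h, with 2 biological replicates (A and B) in each of the 4 groups. The knockout is 1 clone, so that loss of RBM6 and the history of that clone cannot be told apart in any difference between the genotypes.

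Gene counts summed to 15355281 to 29832009 per library, and the deepest was replicate B of control cells after IR. Levels are given as CPM, the share of a library's counts in parts per 1000000 after TMM scaling of the library size, and 3 counts, the limit that a count of 0 allows, was worth 0.0965 to 0.204 CPM per library. Counting intervals and limits cover counting error only. They take no account of the choice of the genes on these same counts, which fixed the folds between genotypes well above 1. RBM6 mRNA of the control genotype was at 66.8 and 68.7 CPM untreated and 54.5 and 48.9 CPM after IR, and that of RBM6-KO1 cells at 61.4 and 63.1 CPM untreated and 43.96 and 33.9 CPM after IR. The log2 fold change between the genotypes was -0.14 untreated (adjusted p = 0.712, edgeR) and -0.40 after IR (adjusted p = 0.535, edgeR), so that the RNA level carries no check of a frameshift in the protein. All 12 breast epithelial markers had at least 20 counts in every library and summed to 8573 to 14080 CPM. EPCAM, a cell adhesion molecule, was the 1 called and was lower in RBM6-KO1 cells (-1.79 untreated, adjusted p = 4.43e-05, and -1.82 after IR, adjusted p = 0.0151, both from edgeR). Untreated, 3 of the 12 were above 0 and 9 below, and after IR 1 and 11. KRT14 (0.78, adjusted p = 0.0156), KRT18 (-0.63, adjusted p = 0.0175) and CDH3 (-0.62, adjusted p = 0.0176, all from edgeR) passed on the adjusted p untreated but were under 2-fold. Of 10 leukocyte markers, 6 had at most 3 counts in every library, and CD3E, MS4A1 and TYROBP were at 0 throughout. The leukocyte sum was 15.9 to 21.7 CPM in control and 9.89 to 11.4 CPM in RBM6-KO1 libraries, and CD14, one of its members, was lower in untreated RBM6-KO1 cells (-1.81, adjusted p = 0.000373, edgeR). The other tested members in that comparison, CSF1R (0.78, adjusted p = 0.205, edgeR) and FCER1G (0.76, adjusted p = 0.456, edgeR), had values above 0 and did not pass. The 8 fibroblast and endothelial markers summed to 83.0 to 107.9 CPM in control and 124.7 to 214.5 CPM in RBM6-KO1 libraries, and DCN made up most of that sum. DCN was higher in RBM6-KO1 cells after IR (1.11, adjusted p = 0.0389, edgeR). Untreated it passed on the adjusted p but was under 2-fold (0.91, adjusted p = 0.00147, edgeR). PECAM1 had values above 0 that did not pass (1.16 untreated, adjusted p = 0.0681, and 1.56 after IR, adjusted p = 0.0865, both from edgeR). COL1A1 of the same list had values below 0 that did not pass (-0.74 untreated, adjusted p = 0.0864, and -1.17 after IR, adjusted p = 0.0612, both from edgeR). The part of these markers in the on-off pattern was not tested, and in bulk RNA fewer expressing cells and less RNA per cell cannot be told apart.

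The 8 genes have unlike roles. PYCARD and CD1D belong to innate and lipid-directed immunity, VWA1 to the extracellular matrix, PALM to the plasma membrane, and NUDT11 and PDE3B are enzymes that remove signalling molecules. NAP1L3 is a relative of histone chaperones, and EP300-AS1 is a long non-coding RNA. CG dinucleotides, which are dense in the promoters of many genes, are the sites of DNA methylation in human cells. Methylation and chromatin were not analysed here.

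**Figure D1:**
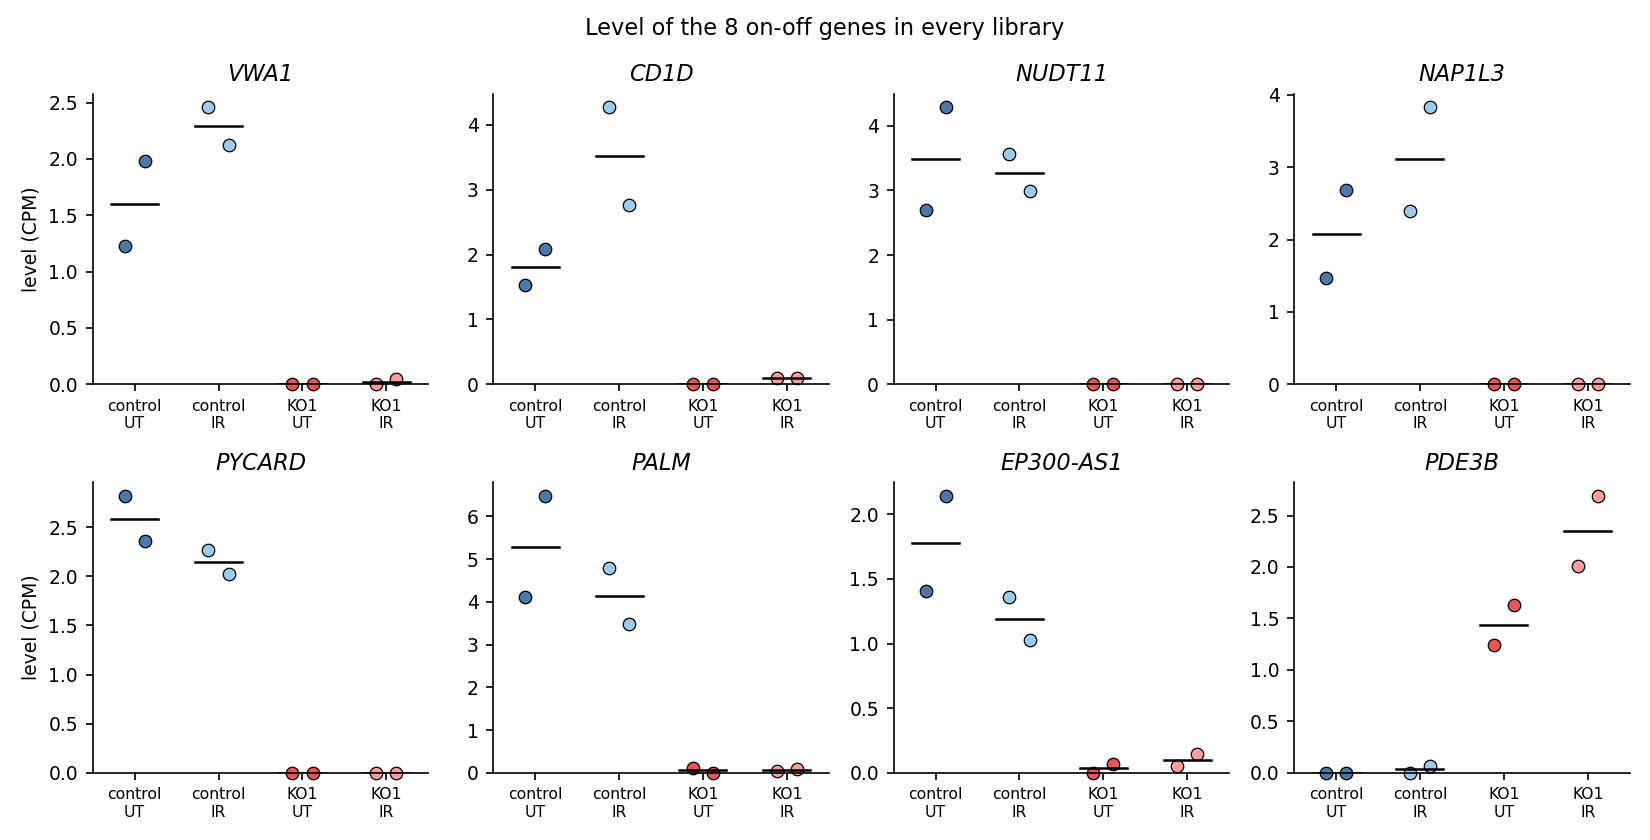
Level of each on-off gene in CPM (vertical axes, linear, from 0, with a scale of its own per gene) in the 8 libraries, grouped as control or RBM6-KO1 (KO1) cells, untreated (UT) or after IR. Points are libraries and bars are means of 2; no library of the silent genotype was above 0.147 CPM, and no library of the expressing genotype was below 1.03 CPM.

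PYCARD (ENSG00000103490, chromosome 16, 31201486 to 31203450, minus strand, GENCODE v44 on GRCh38) encodes ASC, the adapter that joins inflammasome sensors to caspase-1. The untreated control libraries had 46 and 44 counts, the irradiated ones 35 and 63, and all 4 RBM6-KO1 libraries 0. On the CPM scale the control libraries held 2.82 and 2.36 untreated and 2.26 and 2.03 after IR, the narrowest spread of the 8 genes, with the highest 1.39 times the lowest. At the mean control level of 2.37 ± 0.333 CPM (SD, n = 4), the RBM6-KO1 libraries would have held 35 to 48 counts each. Against the limit of 3 counts over the 4 silent libraries (0.0415 CPM), PYCARD was at least 55.6-fold higher in control cells. PYCARD-AS1, annotated on the opposite strand, shares 991 exon bases with it, and 47.3% of the 150-base windows of PYCARD transcripts lie in PYCARD-AS1 transcripts when read from the other strand. Strandedness of the counting is not given in the sources used here, so that reads of the pair cannot be told apart where they overlap, but PYCARD-AS1 itself had 0 counts in all 8 libraries. The RefSeq promoter window of PYCARD (250 bases before to 50 after the start, chr16:31202711-31203010, minus strand, GRCh38.p14) is printed because PYCARD is also known as TMS1, a target of methylation-induced silencing, and the capitals mark its CG dinucleotides:
PYCARD: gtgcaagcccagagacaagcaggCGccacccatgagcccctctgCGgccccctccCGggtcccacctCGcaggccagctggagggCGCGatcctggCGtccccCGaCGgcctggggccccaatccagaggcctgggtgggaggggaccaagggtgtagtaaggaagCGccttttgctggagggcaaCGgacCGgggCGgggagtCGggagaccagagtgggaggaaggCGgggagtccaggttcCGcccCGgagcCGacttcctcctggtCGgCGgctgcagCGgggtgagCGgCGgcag
The window holds 23 CG dinucleotides, more than 64.2% of all windows, at 0.6 of the number expected from its base composition.

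CD1D (ENSG00000158473, chromosome 1, 158178030 to 158186427, plus strand) encodes the MHC-like molecule that pairs with beta-2-microglobulin and presents lipids to natural killer T cells. Control libraries had 25 and 39 counts untreated and 66 and 86 after IR, and RBM6-KO1 libraries 0 and 0 untreated and 2 and 2 after IR. The control levels were 1.53 and 2.09 CPM untreated and 4.27 and 2.77 CPM after IR. The few counts in RBM6-KO1 cells were all in the irradiated libraries, at 0.103 and 0.0979 CPM, below the limit of 3 counts. Summed over libraries the control level was 47.9 times the RBM6-KO1 level (95% counting interval 18.4 to 177, exact binomial on the summed counts). CD1D has a pair of annotated starts, and its second window (chr1:158180645-158180944, plus strand) is shown as the promoter with the fewest CG dinucleotides among those of the silent genes apart from the gene's own first start:
CD1D: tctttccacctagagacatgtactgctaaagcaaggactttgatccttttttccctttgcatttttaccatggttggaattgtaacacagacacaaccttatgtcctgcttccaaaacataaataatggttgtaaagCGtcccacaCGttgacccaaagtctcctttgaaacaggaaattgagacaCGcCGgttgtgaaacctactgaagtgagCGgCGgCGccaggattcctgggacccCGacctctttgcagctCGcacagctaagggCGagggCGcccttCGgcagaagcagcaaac
It holds 12 CG dinucleotides, and the window of the first start holds 2. The number in the second window is above that of 46.9% of all windows.

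VWA1 (ENSG00000179403, chromosome 1, 1434861 to 1442882, plus strand) encodes WARP, a matrix protein of basement membranes that binds perlecan and collagen VI. Control libraries had 20 and 37 counts untreated and 38 and 66 after IR. RBM6-KO1 cells had 0 and 0 untreated and 0 and 1 after IR, where 29 to 40 counts per library correspond to the control mean of 1.95 ± 0.520 CPM (SD, n = 4). The ratio of the summed levels was 143 (95% counting interval 25.3 to 5677), and its upper end is wide because it rests on 1 count.

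PALM (ENSG00000099864, chromosome 19, 708935 to 748329, plus strand) encodes paralemmin-1, a lipid-anchored protein of the inner face of the plasma membrane that takes part in membrane shape. It was the most abundant of the 8 in CPM, with 67 and 121 counts in untreated control cells and 74 and 108 after IR. RBM6-KO1 libraries had 2 and 0 counts untreated and 1 and 2 after IR. The control mean was 4.71 ± 1.30 CPM (SD, n = 4), and the ratio of summed levels was 65.7 (95% counting interval 27.9 to 203).

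NUDT11 (ENSG00000196368, chromosome X, 51490011 to 51496592, minus strand) encodes a diphosphoinositol polyphosphate phosphohydrolase, which removes phosphate from inositol pyrophosphates. Control cells had 44 and 80 counts untreated and 55 and 93 after IR, and all 4 RBM6-KO1 libraries had 0. The control mean was 3.38 ± 0.700 CPM (SD, n = 4), which corresponds to 50 to 69 counts in each RBM6-KO1 library, and the gene was at least 80.4-fold higher in control cells. NUDT10 is a near-identical paralog on the same chromosome. It had 1 and 0 counts in untreated control cells, 0 and 2 after IR and 0 in the RBM6-KO1 libraries, so that in the table the paralog was close to silent in both genotypes. Of the 2232 distinct 150-base windows of NUDT11 transcripts, 79 (3.54%) also occur in NUDT10 transcripts, and counts of this pair are uncertain to that extent. The promoters of the pair are shown together because they are alike while the counts were not. That of NUDT11 lies at chrX:51496543-51496842, minus strand, and that of the second NUDT10 start at chrX:51332572-51332871, plus strand, with CG dinucleotides in capitals:
NUDT11: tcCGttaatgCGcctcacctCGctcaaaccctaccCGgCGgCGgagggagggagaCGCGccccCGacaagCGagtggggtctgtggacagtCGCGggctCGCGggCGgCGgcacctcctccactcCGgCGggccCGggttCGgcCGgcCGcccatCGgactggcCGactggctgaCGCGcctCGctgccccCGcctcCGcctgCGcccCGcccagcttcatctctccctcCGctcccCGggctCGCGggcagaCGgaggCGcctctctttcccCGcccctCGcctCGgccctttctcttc
NUDT10: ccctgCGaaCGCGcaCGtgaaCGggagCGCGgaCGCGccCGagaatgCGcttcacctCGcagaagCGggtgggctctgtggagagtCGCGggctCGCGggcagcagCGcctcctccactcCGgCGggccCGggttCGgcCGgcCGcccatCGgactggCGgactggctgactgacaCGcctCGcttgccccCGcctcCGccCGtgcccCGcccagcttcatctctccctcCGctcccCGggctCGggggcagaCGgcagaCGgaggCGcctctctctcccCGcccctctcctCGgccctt
They match at 251 of 280 aligned bases (89.6%), share a longest run of 51 bases and hold 40 CG dinucleotides each, more than 92.4% of all windows. The first NUDT10 start, with 9, matches at 55.1% of aligned bases.

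NAP1L3 (ENSG00000186310, chromosome X, 93670930 to 93673578, minus strand) encodes a member of the nucleosome assembly protein 1 family, whose better known members carry histones H2A and H2B. Counts were 24 and 50 in control libraries without IR, 37 and 119 with IR and 0 in all 4 RBM6-KO1 libraries. The levels in control cells were 1.47 and 2.68 CPM untreated and 2.39 and 3.83 after IR. NAP1L3 was at least 68.0-fold higher in control cells against the limit of 3 counts over the 4 RBM6-KO1 libraries. It is the third gene with no read in RBM6-KO1 cells, and its promoter (chrX:93673529-93673828, minus strand) is shown for comparison with those of PYCARD and NUDT11:
NAP1L3: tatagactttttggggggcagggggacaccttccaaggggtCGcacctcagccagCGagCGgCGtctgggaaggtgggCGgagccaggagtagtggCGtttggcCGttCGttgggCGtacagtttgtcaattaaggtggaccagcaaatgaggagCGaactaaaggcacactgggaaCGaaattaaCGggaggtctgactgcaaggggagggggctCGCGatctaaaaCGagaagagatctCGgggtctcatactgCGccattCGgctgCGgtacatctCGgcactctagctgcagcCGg
With 21 CG dinucleotides it exceeds 60.5% of all windows.

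EP300-AS1 (ENSG00000231993, chromosome 22, 41174591 to 41197508, minus strand) is a non-coding RNA that overlaps part of EP300, the gene of the histone acetyltransferase p300, on the opposite strand. It had 23 and 40 counts in untreated control cells and 21 and 32 after IR, against 0 and 1 without and 1 and 3 with IR in RBM6-KO1 libraries. The control mean was 1.49 ± 0.470 CPM (SD, n = 4), and the ratio of summed levels was 20.6 (95% counting interval 8.57 to 64.6), the smallest of the 8. EP300 had 172 and 192 counts in untreated control, 134 and 499 in irradiated control, 317 and 190 in untreated RBM6-KO1 and 269 and 401 in irradiated RBM6-KO1 libraries. The log2 fold change of EP300 between the genotypes was 0.55 untreated (SE 0.22, adjusted p = 0.18, edgeR) and 0.43 after IR (SE 0.33, adjusted p = 0.755, edgeR), so that neither passed the test. The genes overlap over 5487 bases on opposite strands with 0 shared exon bases in GENCODE v44, and intronic reads of one within exons of the other cannot be told apart without strand.

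PDE3B (ENSG00000152270, chromosome 11, 14643804 to 14872044, plus strand), the gene expressed in RBM6-KO1 cells only, encodes the cAMP phosphodiesterase through which insulin lowers cAMP in fat cells. It had 22 and 24 counts in untreated and 39 and 55 in irradiated RBM6-KO1 cells. The control libraries had 0 and 0 counts untreated and 0 and 2 after IR, and in the deepest library, which held these 2 counts, 59 correspond to the RBM6-KO1 mean of 1.89 ± 0.619 CPM (SD, n = 4). The ratio of summed levels was 78.9, higher in RBM6-KO1 cells (95% counting interval 21.4 to 658).

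Per kilobase of exon, EP300-AS1, with 554 exon bases, stood highest of the 8 at 2.68 CPM per kilobase, above 47.3% of the genes that passed the low-count filter over the 8 libraries. PYCARD (1.43, above 35.1% of those genes) and NUDT11 (1.42) followed, then NAP1L3 (0.979) and PALM (0.959), CD1D (0.611) and VWA1 (0.384). PDE3B, with 11626 exon bases, was lowest at 0.163 CPM per kilobase, above 6.44% of the genes. From PYCARD to VWA1, neighbours in this order overlapped between libraries, while EP300-AS1 lay above and PDE3B below the range of the next gene.

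The limits cut through a continuous range. On the control side VWA1 (at least 20 counts where expressed) and EP300-AS1 (up to 3 counts where silent) lay just inside. NAP1L5, another member of the NAP1 family, lay just outside with 19, 27, 26 and 44 counts in control and 1, 0, 1 and 0 in RBM6-KO1 libraries, and PRSS3 had 26, 42, 19 and 20 against 0 in every RBM6-KO1 library. HCG11 failed the same limit with 17 counts in 1 control library. RPL39L (65, 68, 76 and 110 against 0, 4, 3 and 3), TMEM74B and RNF144A failed on the silent side with 4, 4 and 5 counts in 1 RBM6-KO1 library each. On the RBM6-KO1 side, LINC03068, CIDEC and ENSG00000227486 came nearest below 20 counts, with lowest values of 13, 12 and 11, and GUCY1B2, NEU4 and APOC3 came nearest above 3 counts, with highest control values of 6, 6 and 10. With at most 5 counts on the silent side 11 genes qualified, and with at least 10 counts on the expressed side 28 did, of which 24 were expressed in control cells only. When counts were scaled to a common library size 8 genes qualified again, of which 7 were the same, with NAP1L5 in place of EP300-AS1.

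The response to IR was tested on the whole table. The choice of genes did not use the difference between treatments, but it did use the counts of both, and PRSS3, for 1, missed the limit through an irradiated control library. The members were thus chosen in part for holding 20 counts in each treatment, and nothing about the on-off genes as a group is read from how many were called. In control cells IR changed 553 of 15412 genes (3.59%) at an adjusted p under 0.05 and at least 2-fold, and in RBM6-KO1 cells 485 of 15598 (3.11%). None of the 7 genes in control cells and not PDE3B in RBM6-KO1 cells was called by edgeR, nor by DESeq2's Wald test. Among the 7, 1 (CD1D) had an unadjusted p under 0.05, where 25.4% of all genes did. Among the same 7, 3 had log2 fold changes above 0 and 4 below, with a median of -0.12 beside 0.02 for all genes. Their standard errors of 0.32 to 0.41, at 20 to 121 counts per library, were larger than the median of 0.24 over all genes. The 95% interval of NUDT11 lay within 2-fold in both directions, and those of the other 6 and of PDE3B reached past 2-fold in 1 direction, so that a missed call does not show stability.

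CD1D and VWA1 were higher in both irradiated than in both untreated control libraries, and 29.5% of all genes shared that order. CD1D had a mean of 1.81 ± 0.394 CPM untreated and 3.52 ± 1.063 CPM after IR (SD, n = 2), a log2 fold change of 0.91 (95% interval 0.13 to 1.70, adjusted p = 0.143, edgeR) that did not pass. VWA1 went from 1.23 and 1.98 to 2.46 and 2.12 CPM, with a log2 fold change of 0.48 (95% interval -0.33 to 1.30, adjusted p = 0.435, edgeR). NAP1L3 had the next largest value above 0, 0.59 (95% interval -0.24 to 1.42, adjusted p = 0.348, edgeR), but its untreated replicate B (2.68 CPM) was above its irradiated replicate A (2.39 CPM).

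PYCARD and EP300-AS1 were lower in both irradiated control libraries, as were 27.6% of all genes. EP300-AS1 went from 1.41 and 2.14 to 1.36 and 1.03 CPM, with a log2 fold change of -0.62 (95% interval -1.51 to 0.28, adjusted p = 0.361, edgeR). PYCARD had -0.29 (95% interval -1.01 to 0.43, adjusted p = 0.615, edgeR). PALM, at 4.11 and 6.48 CPM untreated and 4.79 and 3.47 after IR, overlapped between treatments (-0.39, 95% interval -1.08 to 0.30, adjusted p = 0.459, edgeR). NUDT11, at 2.70 and 4.29 untreated and 3.56 and 2.99 after IR, lay nearest to 0 (-0.12, 95% interval -0.83 to 0.59, adjusted p = 0.846, edgeR), and its sign turned (0.26) when untreated control replicate B was omitted.

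PDE3B in RBM6-KO1 cells was at 1.24 and 1.63 CPM untreated and 2.01 and 2.69 after IR. The groups did not overlap, as for 32.6% of all genes in that direction, and the log2 fold change was 0.70 (95% interval -0.13 to 1.54, adjusted p = 0.233, edgeR).

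**Figure D2:**
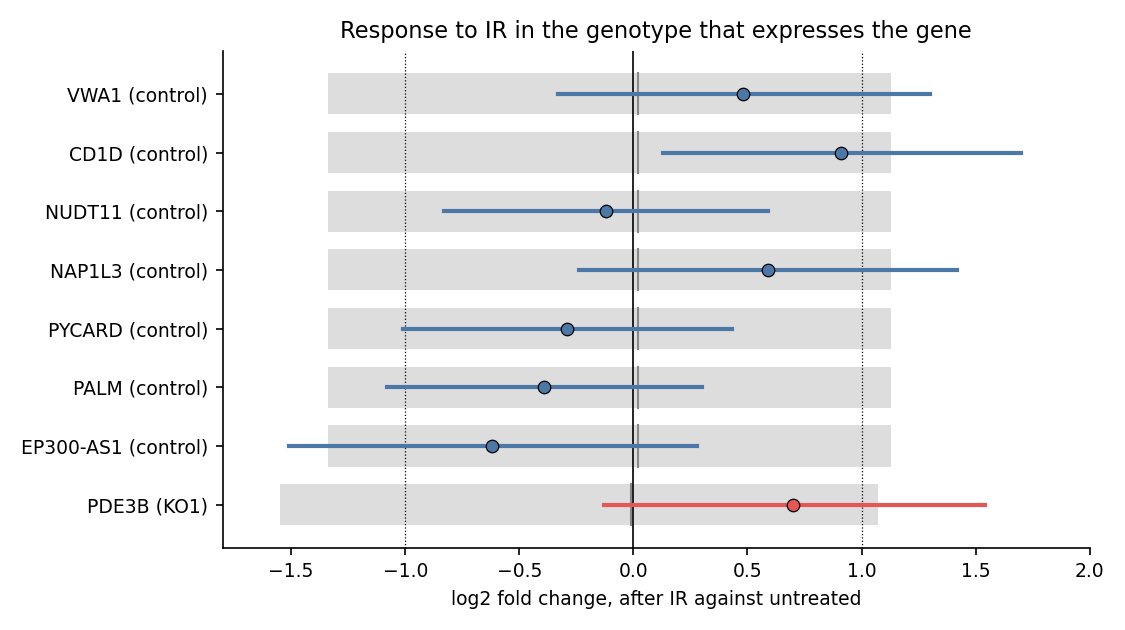
Log2 fold change after IR against untreated (horizontal axis) of the 8 genes in the genotype that expresses them, with points for the edgeR estimate and lines for its 95% interval. Grey bars span the middle 95% of all genes tested (-1.34 to 1.13 in control and -1.55 to 1.07 in RBM6-KO1 cells), with a tick at their median, and dotted lines mark a 2-fold change; all 8 points lie inside the grey bars.

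The pathways around these genes were examined in the genotype comparisons, in which 3.12% of genes were called untreated and 1.17% after IR. List members named for their response to IR were chosen after their values were seen. Around PYCARD, 1 of 16 tested genes of inflammasomes and pyroptosis was called, NLRP3, a sensor that recruits ASC. Its counts were 185 and 179 in untreated control and 96 and 74 in untreated RBM6-KO1 libraries, a log2 fold change of -1.01 (SE 0.24, adjusted p = 0.0161, edgeR), and after IR it was -1.22 (SE 0.22, adjusted p = 0.0585, edgeR), which did not pass. The list's median was -0.18 untreated beside 0.01 for all genes and -0.06 after IR beside 0.02. CASP1, the protease that ASC activates, named after its values were seen, passed on the adjusted p alone in untreated cells but was under 2-fold (-0.65, SE 0.18, adjusted p = 0.0331, edgeR). The substrates IL1B and IL18 and the pore protein GSDMD did not pass in either comparison, and IL1B was abundant in every library with 10998 to 42641 counts. After IR, MEFV was the 1 list member called in RBM6-KO1 cells (1.01, adjusted p = 0.0371, edgeR) and none was called in control cells. MEFV was at 0.48 in control cells (SE 0.23, adjusted p = 0.219, edgeR), and a difference in response between the genotypes was not tested.

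Around CD1D, 0 of 8 tested genes of lipid antigen presentation were called in either genotype comparison, with medians of -0.24 untreated and -0.13 after IR. The other CD1 genes were near silent in both genotypes, CD1A, CD1B and CD1E at 0 counts in all 8 libraries and CD1C at 4 counts in 1. B2M, the partner chain of CD1D, differed by -0.23 (SE 0.13, adjusted p = 0.392, edgeR) in untreated RBM6-KO1 cells. NPC2, a lysosomal lipid carrier named after its values were seen, differed by -0.94 untreated (SE 0.16, adjusted p = 0.00134, edgeR), just under 2-fold. GM2A, a lipid transfer protein that loads CD1 molecules, rose after IR in both genotypes (1.2 in control, adjusted p = 0.00388, and 1.02 in RBM6-KO1 cells, adjusted p = 0.0114, both from edgeR).

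Around VWA1, 2 of 19 tested genes of basement membrane and pericellular matrix were called untreated and 3 after IR. COL6A2 was higher in RBM6-KO1 cells, from 152 and 231 counts in untreated control to 947 and 865 (2.35, SE 0.19, adjusted p = 5.17e-07, edgeR), and stayed so after IR (2.26, adjusted p = 0.00779, edgeR). COL6A3 was lower, from 759 and 806 counts to 208 and 87 (-2.34, SE 0.25, adjusted p = 1.14e-05, edgeR, and -2.28 after IR, adjusted p = 0.0151). Both encode chains of collagen VI, to which WARP binds, and the chain gene COL6A1 did not pass (0.21, adjusted p = 0.484, edgeR). LAMA5, a laminin chain, was called after IR (-1.01, SE 0.16, adjusted p = 0.0364, edgeR). Untreated it passed on the adjusted p but was under 2-fold (-0.89, adjusted p = 0.000847, edgeR). The same held untreated for the collagen IV genes COL4A1 (-0.77, adjusted p = 0.0148), COL4A2 (-0.82, adjusted p = 0.00152) and COL4A6 (-0.58, adjusted p = 0.0462, all from edgeR). COL4A5 did not pass (-0.24, adjusted p = 0.499, edgeR), and none of these collagen IV genes passed after IR. HSPG2, which encodes perlecan, did not differ detectably between untreated genotypes (0.00, SE 0.18, adjusted p = 0.999, edgeR) and was the 1 list member called after IR in control cells (1.02, adjusted p = 0.019, edgeR). In RBM6-KO1 cells the response of HSPG2 to IR was 0.71 (adjusted p = 0.113, edgeR). The list's median was -0.37 untreated and -0.34 after IR, with 15 and 17 of 19 genes below 0.

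Around NAP1L3, NAP1L5 was the 1 of 7 tested family members that was called, lower in RBM6-KO1 cells in both comparisons (-5.12, SE 0.89, adjusted p = 0.00144 untreated, and -5.63, SE 0.79, adjusted p = 0.0254 after IR, both from edgeR). On the same counts NAP1L5 lay just outside the on-off limits, and it passed the low-count filter through control libraries. Its calls are thus not separate from the contrast that chose NAP1L3. NAP1L5 and NAP1L3 were both near silent in RBM6-KO1 cells, while the widely expressed NAP1L1 (0.14, adjusted p = 0.692, edgeR) and NAP1L4 (0.00, adjusted p = 0.999, edgeR) did not pass. NAP1L2 had 1, 0, 3 and 11 counts in control and 2, 8, 1 and 6 in RBM6-KO1 libraries, and passed no low-count filter. The family's median was 0.00 untreated and 0.05 after IR, and no member was called after IR in either genotype.

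Around NUDT11, 0 of 10 tested genes of inositol pyrophosphate metabolism were called in untreated cells and 0 of 11 after IR, with medians of -0.15 and -0.03. NUDT3 and NUDT4, which encode enzymes of the same activity, were expressed in both genotypes (28 to 94 and 316 to 1296 counts). IP6K3, a kinase that makes inositol pyrophosphate, rose after IR in both genotypes (2.74 in control cells, adjusted p = 0.0111, and 2.83 in RBM6-KO1 cells, adjusted p = 0.0306, both from edgeR). IPMK rose after IR in RBM6-KO1 cells (1.21, adjusted p = 0.0456, edgeR) and was at 0.58 in control cells (SE 0.40, adjusted p = 0.378, edgeR). Around PDE3B, 0 of 18 tested genes of cAMP synthesis and breakdown were called untreated and 0 of 19 after IR (medians -0.01 and 0.04), and none was called after IR in either genotype. Its closest relative PDE3A had 1 count in 1 library, so that RBM6-KO1 cells had counts for PDE3B but none for PDE3A.

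Around EP300-AS1, 0 of 10 genes of p300 and partner acetyltransferases were called between genotypes untreated and 0 of 9 after IR (medians 0.01 and -0.01). In response to IR, KAT2B rose in control cells (1.21, adjusted p = 0.0394, edgeR) and was at 0.88 in RBM6-KO1 cells (adjusted p = 0.0675, edgeR). CITED4 fell after IR in RBM6-KO1 cells (-1.42, adjusted p = 0.00931, edgeR). In control cells CITED4 passed on the adjusted p but was under 2-fold (-0.92, adjusted p = 0.0471, edgeR). Of the paralemmin family, PALM2AKAP2, PALM3 and PALMD had at most 10 counts in any library and passed no low-count filter, so that PALM was the 1 family member tested. All 24 genes of DNA methylation and Polycomb enzymes were tested and 0 were called in any of the 4 comparisons, with medians of 0.07 untreated and -0.08 after IR between genotypes. DNMT1, the maintenance methyltransferase, was at 0.21 (SE 0.14, adjusted p = 0.466, edgeR) and EZH2, the Polycomb methyltransferase, at 0.03 (SE 0.18, adjusted p = 0.956, edgeR) in untreated cells.

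The on-off genes lay apart in the genome, with 2 on chromosome 1, 2 on chromosome X and 1 each on chromosomes 11, 16, 19 and 22. Of the genes with at least 20 counts in all control libraries 3.31% are on chromosome X. The 506 tested genes of that chromosome included NUDT11 and NAP1L3. Between untreated genotypes the median log2 fold change of the 506 was 0.02, beside 0.01 for all genes. Of these 506, 8 were called (1.58%), beside 3.12% of all genes, and a chromosome-wide change was not tested. NUDT11 and NAP1L3 were chosen on this genotype contrast and were not left out, so that the number of calls carries no result. The nearest tested gene on either side of a member was called in 0 of 16 cases untreated and 0 of 15 after IR. Of all genes 3.12% and 1.17% were called, so that 0 calls among so few genes carry no result. The medians of these neighbours were 0.15 and 0.00.

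The annotated gene PSMA1, of a proteasome subunit, ends 169 bases from PDE3B on the opposite strand, so that the annotated genes are head to head. Counts were per gene and do not show which start of PSMA1 was used. PSMA1 had 392 and 436 counts in untreated control and 460 and 500 in untreated RBM6-KO1 cells (0.32, SE 0.19, adjusted p = 0.399, edgeR), and 0.01 (SE 0.26, adjusted p = 0.996, edgeR) after IR, while PDE3B went from 0 to 22 and 24 counts. MISP, 2783 bases from PALM, was at -0.45 (SE 0.21, adjusted p = 0.279, edgeR), and ATAD3C, 6807 bases from VWA1, at 2.0 on 4 to 20 counts (SE 0.62, adjusted p = 0.0682, edgeR). L3MBTL2, 7774 bases from EP300-AS1, passed on the adjusted p in untreated cells but was under 2-fold (-0.91, SE 0.18, adjusted p = 0.00336, edgeR). The neighbours of CD1D, NUDT11 and NAP1L3 were farther, at 28220 to 3011134 bases. Among the 5 nearest tested genes on each side, 2 of 80 were called untreated and 0 of 79 after IR. The shares of all genes were 3.12% and 1.17%. PRSS8, 65759 bases from PYCARD (-1.10, SE 0.20, adjusted p = 0.00223, edgeR), and PLEKHA7, 1905253 bases from PDE3B (-1.43, SE 0.34, adjusted p = 0.015, edgeR), were both lower in RBM6-KO1 cells, PLEKHA7 against the direction of PDE3B.

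The promoter windows of 6 of the 8 genes were in the RefSeq table. Over all 35116 windows of 300 bases the median was 14 CG dinucleotides with quartiles of 4 and 28, and 48.9% of windows reached 0.6 of the CG number expected from their composition. VWA1 had 47, more than 97.6% of windows, NUDT11 and EP300-AS1 had 40, PYCARD 23, NAP1L3 21 and CD1D 12 and 2 at its pair of starts. The genes silent in RBM6-KO1 cells thus included windows from the CG-poor to the CG-richest range. The GC box GGGCGG, searched on both strands, was found 4 times each for NUDT11 and EP300-AS1, 2 times for PYCARD, and 1 time each for VWA1 and NAP1L3, and is in 45.0% of all windows. The CCAAT box (CCAAT) was in the PYCARD window and in that of the first CD1D start, and in 34.6% of all. The TATA box TATAAA, present in 11.5% of windows, was in none of these.

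For each on-off gene the most alike gene was taken as the one with the highest Pearson r of log2 CPM over the 8 libraries, a measure that here mostly reflects the split between genotypes and is given without a test. For NAP1L3 it was CSRNP3, with 6, 13, 9 and 28 counts in control and 0 in all RBM6-KO1 libraries (r = 0.998). For PALM it was ZNF32 with 59 to 96 against 3 to 6 counts (r = 0.996), for EP300-AS1 SRRM3 with 66 to 125 against 1 to 6 (r = 0.993), and for PYCARD SLC2A3, a glucose transporter gene, with 504 to 1036 against 66 to 115 (r = 0.997). GDA, which encodes guanine deaminase, was the most alike to PDE3B, with 659 to 1894 counts in control and 3997 to 6981 in RBM6-KO1 libraries (r = 0.993). VWA1 (POLDIP3, r = 0.999), CD1D (RNF114, r = 0.998) and NUDT11 (ARRB2, r = 0.998) had partners that, like SLC2A3 and GDA, were expressed in both genotypes. Between 186 and 428 of 16541 genes had r above 0.9 with a given on-off gene.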

How the data were processed

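RNA from 8 cultures of MCF10A-Hras cells (TruSeq mRNA libraries, 150 bp paired-end reads) was sequenced by the study. The authors deposited raw, unnormalized whole-number counts for each Ensembl gene, from reads aligned to hg38. The submitters' processing notes name STAR and DESeq2 without versions, and the counting tool, annotation version and strandedness are not given in the sources used here. All 8 columns were matched to samples by their titles, and 0 were left out.

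The 8 genes and all gene lists were chosen with earlier results of these data known. Counts were normalized by TMM and tested with edgeR 4.0.16 (R 4.3.3), quasi-likelihood with filterByExpr, each comparison on its own libraries and with Benjamini-Hochberg adjustment over all genes tested, with calls at an adjusted p under 0.05 and at least 2-fold. The replicates are the study's biological replicates, 2 per group, and p-values measure the spread between them. DESeq2 1.42.0, other normalizations and filters, blocks for the replicate letter, joint fits and omission of single libraries were alternatives. Folds between genotypes are ratios of summed counts per TMM library size with exact binomial intervals at 95%, or bounds against 3 counts. The genes named beside the 8 were RBM6, those nearest the limits, called members of the lists, paralogs, overlapping and nearest tested genes and the most alike gene (highest Pearson r, prior count 2), and any other gene named, list members that were not called included, was chosen after its values were seen.

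The lists held the breast epithelial, leukocyte, and fibroblast and endothelial markers, and genes of inflammasomes and pyroptosis, CD1 lipid antigen presentation, the NAP1 family, inositol pyrophosphate metabolism, the paralemmin family, cAMP synthesis and breakdown, basement membrane and pericellular matrix, p300 and partner acetyltransferases, and DNA methylation and Polycomb enzymes. Positions and exon lengths are from GENCODE v44 (GRCh38), and promoter sequences from RefSeq (GRCh38.p14), which gave windows for 6 of the 8 genes. Counts were not split by splice form.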

Additional observations from a re-analysis of the deposited data

How the results depend on the processing

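Without a replicate block as the main setting, the block for the letters A and B gave 637 calls for IR in control cells (553 without it), 646 for IR in RBM6-KO1 cells (485), 524 between untreated genotypes (486) and 541 between irradiated genotypes (182), and none of the 8 genes was called for IR with it. The deviations of same-lettered libraries correlated at -0.181 and -0.257 within the genotypes and at 0.079 and 0.35 within the treatments, and nothing in the labels ties a letter to a shared batch or day, so that a pairing was not established. The highest of these, 0.35, was between the irradiated genotypes, where the block moved the calls most. With the letters crossed, chosen after seeing the data, IR gave 965 calls in control and 1222 in RBM6-KO1 cells.

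The log2 fold changes of the 8 genes after IR kept their direction and stayed uncalled in 94 of 96 fits. CD1D passed on the adjusted p alone with the letters crossed (0.93, adjusted p = 0.0222, edgeR) but was under 2-fold. NUDT11 turned to 0.26 when untreated control replicate B was omitted and to 0.0049 when irradiated control replicate B was, the cause of which was not tested. Over the omitted libraries the values ran from -0.43 to 0.26 for NUDT11, 0.61 to 1.21 for CD1D, 0.17 to 0.88 for VWA1, 0.18 to 1.10 for NAP1L3, -0.41 to -0.17 for PYCARD, -0.69 to -0.01 for PALM, -0.90 to -0.27 for EP300-AS1 and 0.49 to 0.92 for PDE3B.

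The numbers of calls moved more. Without a filter there were 962 for IR in control cells, 1011 in RBM6-KO1 cells and 506 between irradiated genotypes, and with the adjusted p alone 881, 884 and, between untreated genotypes, 952. Between irradiated genotypes DESeq2 gave 319, at least 10 counts in every library 71 and 1 joint fit 340. Omitting a library gave 287 to 1406 calls for IR in control cells, from 289 up to 1563 for IR in RBM6-KO1 cells, 399 to 658 between untreated and 169 to 477 between irradiated genotypes, where the lone library of a group was assumed to vary like the others. With at least 10 counts on the expressed side 28 genes were on-off. Low counts, of 20 to 121 per library, limit every statement on IR.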
